A study of Mus musculus with 3 samples.

Results

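Of 30000 liver barcodes, 6186 (20.6%) carried an unusually large share of nuclear transcripts, meaning that Malat1 and Neat1 together made up at least 0.5% of their UMIs. A barcode stands for 1 droplet, and a UMI (unique molecular identifier) counts 1 captured mRNA molecule. The nuclear-rich barcodes were chosen by these measured shares and by further limits: at most 40% of UMIs from mitochondrial genes, and fewer than 2 UMIs summed over 11 genes of other liver cells (Ptprc, Cd3e, Clec4f, C1qa, Kdr, Clec4g, Dcn, Col3a1, S100a8, Cd79a and Siglech). Within those limits were 26338 barcodes, of which the 20152 with less Malat1 and Neat1 are called other hepatocyte barcodes here. Because measured values chose the barcodes, their difference from the rest in any gene is a description and was not tested.

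The libraries came from livers of 9-week-old male C57BL/6 mice that were all Ifih1-/- and Alb-Cre+ and differed at Adar1, which was flox/flox, wt/flox or wt/wt, with 1 library per genotype and 10000 barcodes in each. All 3 therefore lacked Ifih1, which encodes MDA5, a sensor of double-stranded RNA, and all carried Cre under the albumin promoter, which acts in hepatocytes. The study compared them for the effect of hepatocyte Adar1 loss without Ifih1. Livers were dissociated by collagenase perfusion and enriched for live cells on Percoll, the labels do not say how many animals entered a library, and genotype and library cannot be told apart. No comparison between genotypes was tested for that reason, and the 95% intervals below cover counting error only.

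Malat1 and Neat1 are long noncoding RNAs that stay in the nucleus. Malat1 collects in nuclear speckles, where splicing factors are stored, and Neat1 is the scaffold of paraspeckles, bodies that also hold RNA-binding proteins and some retained mRNAs. In hepatocytes a few mRNAs are known to be held in the nucleus, among them Mlxipl, which encodes the carbohydrate response factor ChREBP. ADAR1, encoded by Adar, edits adenosine to inosine in double-stranded RNA and keeps such RNA from MDA5 and other sensors that start a type I interferon response.

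The capture primer of the 3' kit binds runs of adenosine, which the RNAs below carry inside their sequence. The stretch around the longest internal A run of each is given because these RNAs either set the rule or stood far above the other hepatocyte barcodes. Sequences follow the transcript strand in GENCODE M21 on GRCm38 (mm10), and capitals mark the A run.
Malat1: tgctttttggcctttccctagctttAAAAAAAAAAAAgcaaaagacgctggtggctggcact
Kcnq1ot1: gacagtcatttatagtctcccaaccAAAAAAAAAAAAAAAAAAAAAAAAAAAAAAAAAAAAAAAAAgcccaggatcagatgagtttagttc
Neat1: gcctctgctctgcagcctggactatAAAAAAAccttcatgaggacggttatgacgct
Egfros: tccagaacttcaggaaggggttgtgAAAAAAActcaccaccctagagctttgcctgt
The Malat1 run is 12 bases long, at bases 6674 to 6685 of its 6983-base transcript (gene chr19:5795690-5802672, minus strand), near the 3' end. Kcnq1ot1, an unspliced antisense RNA that silences imprinted genes around Kcnq1, holds a 41-base run at bases 69565 to 69605 of 93092 and 8 runs of at least 12 bases (gene chr7:143203458-143296549, minus strand). The longest runs of Neat1 (gene chr19:5824708-5845478, minus strand) and Egfros (gene chr11:16815431-16830702, minus strand) are 7 bases. Neither transcript holds a run of at least 12 bases, and how often other transcripts hold runs of 7 was not counted. Outside the last 50 bases, a run of at least 12 was found in the longest transcript of 1058 of 9727 measured genes (10.9%), and in 335 of the 2244 genes (14.9%) that were higher in nuclear-rich barcodes by the measure given further on. Of the 130 genes that were lower, 3 (2.31%) had such a run. Higher genes were also more frequent among long transcripts, as given further on, and these shares were not adjusted for length. No priming at any of these runs can be read from the files, which hold counts per gene.

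The nuclear-rich share was close to 1 barcode in 5 in each library. In the flox/flox library 2171 barcodes were nuclear-rich (21.7%, exact Clopper-Pearson interval 20.9 to 22.5), in wt/flox 2102 (21.0%, 20.2 to 21.8) and in wt/wt 1913 (19.1%, 18.4 to 19.9). The intervals of flox/flox and wt/flox overlap each other, and wt/wt lies just below both.

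The hepatocyte name held for most of these barcodes but not for all. Over 76 markers of 8 other cell classes, which the rule did not use, 1946 of the 6186 (31.5%) held at least 2 UMIs. That share was 32.7% in flox/flox, 35.9% in wt/flox and 25.1% in wt/wt. T and NK cell markers led in 34.6%, 29.9% and 35.2% of these barcodes, in the same order, ahead of B cell markers in 17.6%, 20.5% and 16.3%. Endothelial markers led in 6.75%, 17.0% and 22.3%, and Kupffer cell or macrophage markers in 16.0%, 14.4% and 10.2%. The wt/wt and wt/flox barcodes thus held more endothelial-led barcodes than flox/flox. Summed over all nuclear-rich barcodes, the 76 markers made up 0.550%, 0.552% and 0.292% of UMIs, with 5, 5 and 4 of the 76 at 0. What follows is therefore given also for the marker-poor nuclear-rich barcodes, those with fewer than 2 UMIs over the 76 markers, set against other hepatocyte barcodes under the same limit in ratios of genes and lists, and against all other hepatocyte barcodes in shares of barcodes and medians per barcode. There were 4240 of them (68.5%), 1460 in flox/flox, 1347 in wt/flox and 1433 in wt/wt. The 76 markers gave them 231, 208 and 161 UMIs in all, with 26, 25 and 28 markers at 0. The limit itself kept these totals low. As a share of all barcodes in a library the marker-poor nuclear-rich barcodes came to 14.6%, 13.5% and 14.3%, so that the order of the genotypes was not the one above.

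Alb did not separate hepatocytes from other barcodes, since at least 1 Alb UMI was found in 99.9%, 100% and 100% of the 3234 barcodes that the 11 genes had barred. Mlxipl UMIs were found more often in nuclear-rich barcodes than in other hepatocyte barcodes or barred barcodes, though most nuclear-rich barcodes held none. With each barcode thinned to 600 UMIs, which left none out, 15.3%, 17.8% and 26.3% of nuclear-rich barcodes in flox/flox, wt/flox and wt/wt had a Mlxipl UMI. The shares were 21.0%, 26.0% and 33.5% in marker-poor nuclear-rich barcodes, against 2.73%, 3.92% and 4.32% of other hepatocyte barcodes and 2.75%, 3.23% and 3.20% of the barred barcodes. Before thinning the shares were 34.0%, 39.1% and 47.0% in the marker-poor nuclear-rich barcodes, 4.76%, 6.41% and 6.87% in other hepatocyte barcodes, and 4.77%, 6.39% and 5.30% in the barred barcodes. The share in other hepatocyte barcodes was thus near that of the barred barcodes, so Mlxipl UMIs did not set those 2 sets apart, and what part free RNA has in either was not tested.

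The share of barcodes with other-cell UMIs changed along the Malat1 and Neat1 share itself. At least 2 other-cell UMIs were found in 24.7%, 10.4% and 7.17% of barcodes with 2 to 4% of UMIs from Malat1 and Neat1, and in 4.05%, 3.65% and 2.22% of those with 4 to 8%. Between 1 and 2% the shares were 63.3%, 61.6% and 46.6%, and between 0.6 and 1% they were 45.9%, 62.8% and 51.1%. The nuclear-rich barcodes were thus a mixture, in which the lower range held most of the other-cell UMIs and the upper range few. Just inside the limit, at 0.5 to 0.6%, 22.4%, 34.5% and 29.5% of 201, 206 and 149 barcodes had such UMIs. Just outside, at 0.4 to 0.5%, 10.6%, 23.0% and 16.1% of 367, 244 and 218 barcodes had them, so the limit falls on a slope and not in a gap.

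**Figure D1:**
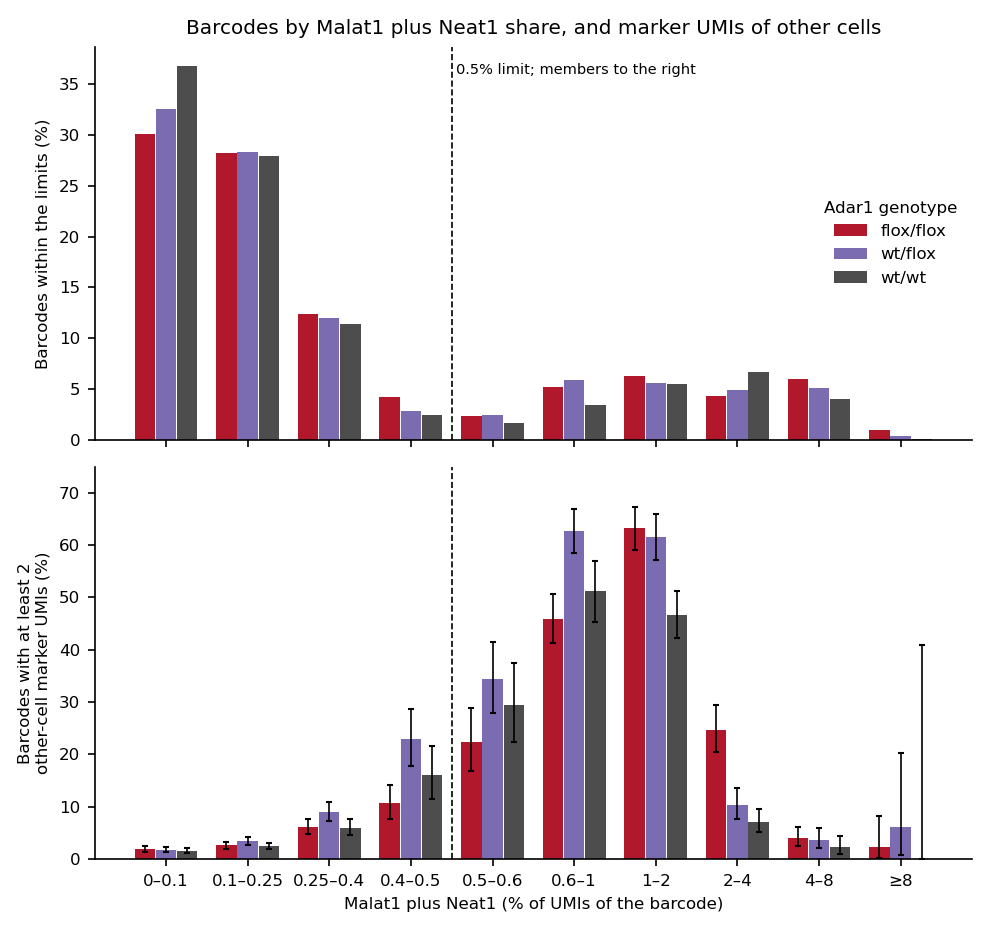
Top, percent of barcodes within the mitochondrial and other-cell limits that fall in each range of Malat1 plus Neat1 (percent of UMIs), by library. Bottom, percent of the barcodes of each range with at least 2 UMIs over 76 other-cell markers, with 95% Clopper-Pearson bars; the share is highest between 0.6 and 2% and is 4.05%, 3.65% and 2.22% at 4 to 8% in flox/flox, wt/flox and wt/wt.

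The make-up of the UMIs differed beyond the RNAs of the rule, with a larger share of splicing genes and a smaller one of ribosomal protein genes. As the rule fixed, marker-poor nuclear-rich barcodes had a median of 3.07%, 2.93% and 2.71% of UMIs from Malat1 and Neat1 in flox/flox, wt/flox and wt/wt, and other hepatocyte barcodes 0.124%, 0.119% and 0.112%. Splicing and nuclear speckle genes, a list of 35, gave a median of 0.912%, 0.602% and 0.688% of UMIs in the marker-poor nuclear-rich barcodes and 0.244%, 0.225% and 0.217% in the other hepatocyte barcodes. The barred barcodes had 0.572%, 0.465% and 0.480%, so a splicing share above that of other hepatocyte barcodes was not particular to the nuclear-rich ones. Ribosomal protein genes were lower in the marker-poor nuclear-rich barcodes, with 4.60%, 6.49% and 6.33% against 7.68%, 9.44% and 10.1% in the other hepatocyte barcodes. The share of 12 hepatocyte markers was similar, at 5.58%, 6.24% and 6.93% in the marker-poor nuclear-rich barcodes and 6.65%, 6.01% and 6.82% in the others, whereas the barred barcodes had 2.57%, 3.42% and 3.73%. The mitochondrial share was 6.81%, 4.18% and 5.22% against 8.04%, 4.05% and 4.93%, which is lower in flox/flox and slightly higher in the other libraries. Depth was a little higher, at a median of 1054.5, 971 and 982 UMIs in the marker-poor nuclear-rich barcodes against 871, 848 and 806, and genes per barcode were 655, 608 and 612 against 526, 522 and 499.

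These shares were graded along the Malat1 plus Neat1 share. Among barcodes with fewer than 2 other-cell UMIs, the median splicing share was 1.38%, 0.904% and 0.954% at 4 to 8% Malat1 plus Neat1, against 0.235%, 0.209% and 0.205% below 0.1%. The ribosomal share at 4 to 8% was 4.09%, 5.82% and 5.72%, against 8.03%, 9.71% and 10.3% below 0.1%. Both therefore continued past the limit of 0.5%. Mitochondrial transcripts did not run in a straight line, as their median was 5.02% at 4 to 8% in flox/flox, 12.2% at 0.6 to 1% and 8.11% below 0.1%, and in wt/wt 3.40%, 9.58% and 4.92%. Mlxipl reached 626, 862 and 1010 CPM (UMIs of a gene scaled to a total of 1000000) at 4 to 8%, against 43.2, 62.3 and 77.8 CPM below 0.1%.

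**Figure D2:**
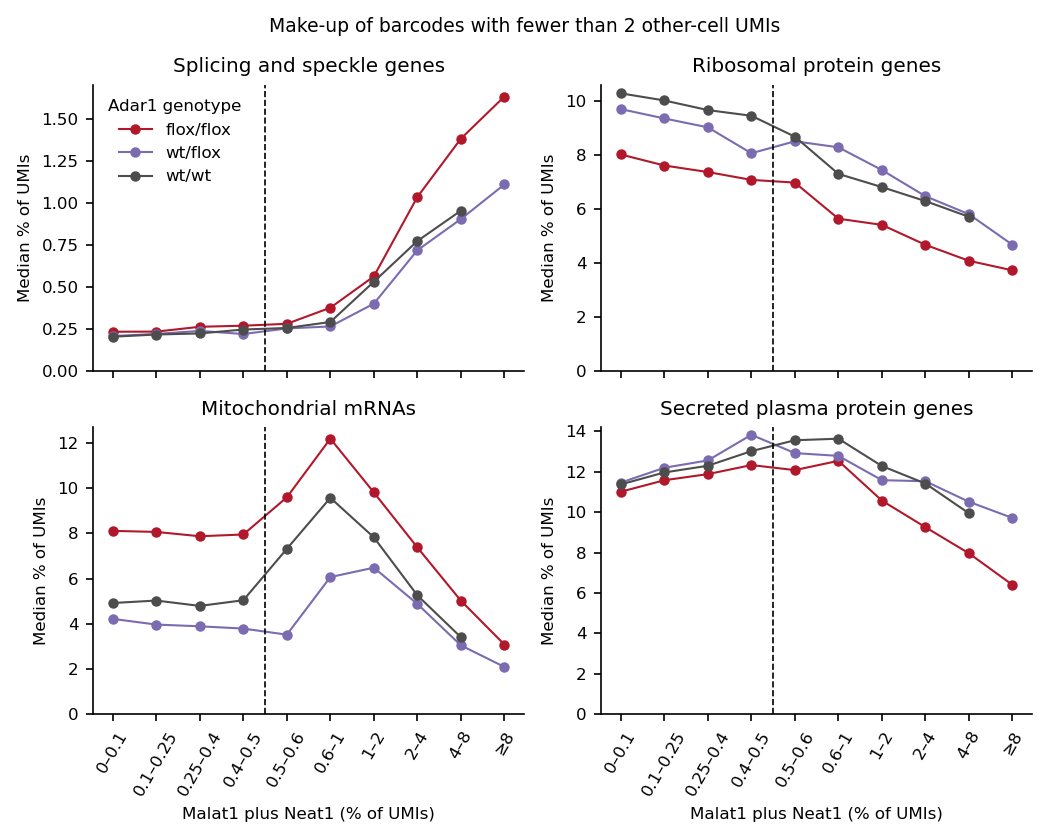
Median percent of UMIs from splicing and speckle genes, ribosomal protein genes, mitochondrial genes and secreted plasma protein genes, by range of Malat1 plus Neat1 (percent of UMIs) and library, for barcodes with fewer than 2 other-cell UMIs. Splicing genes climb and ribosomal protein genes descend from the lowest range to 4 to 8%, while mitochondrial genes peak in between.

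Within the marker-poor nuclear-rich barcodes of 1 library, Spearman's rho of the Malat1 plus Neat1 share with the splicing share was 0.81, 0.70 and 0.64 over 1460, 1347 and 1433 barcodes in flox/flox, wt/flox and wt/wt. It was -0.35, -0.42 and -0.33 with the ribosomal share, and -0.55, -0.30 and -0.35 with the secreted protein share. These barcodes share a library, and shares of one total are tied to each other, so the values are descriptive. With total UMIs rho was 0.20, 0.34 and 0.32, and how far depth enters the other values was not tested.

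Across genes, a gene was counted as higher or lower when its CPM from summed UMIs lay at least 1.5-fold apart in the same direction in all 3 libraries. By the rule, 3438 of 11271 measured genes (30.5%) were higher in nuclear-rich than in other hepatocyte barcodes and 40 (0.355%) were lower. In marker-poor barcodes 2247 of 9734 (23.1%) were higher and 130 (1.34%) lower. The median log2 ratio of all measured genes was 0.31, 0.23 and 0.26 in the marker-poor sets of flox/flox, wt/flox and wt/wt. By the rule it was 0.45, 0.36 and 0.41. Values below are log2 ratios of CPM, nuclear-rich over other hepatocyte barcodes, and should be read against these medians.

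The RNAs of the rule were higher by construction. Malat1 stood at 25432, 21839 and 21576 CPM in the nuclear-rich barcodes of flox/flox, wt/flox and wt/wt, against 1322, 1160 and 1038 CPM in other hepatocyte barcodes. Neat1 stood at 2740, 3233 and 3579 CPM against 111, 140 and 107 CPM. A Malat1 UMI was still present in 66.8%, 62.0% and 58.1% of other hepatocyte barcodes.

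Other nuclear long noncoding RNAs were higher as well, 8 of the 9 measured of a list of 14 (30.5% of all genes were), with medians of 2.56, 1.92 and 2.34. In marker-poor barcodes all 8 that were measured were higher (medians 3.28, 2.64 and 2.51), where 23.1% of all genes were. A scarce RNA could be measured on its UMIs in nuclear-rich barcodes alone, so these counts lean towards RNAs that are high there. Kcnq1ot1 had 283, 189 and 154 CPM in nuclear-rich barcodes of flox/flox, wt/flox and wt/wt, against 11.8, 9.15 and 5.18 CPM in other hepatocyte barcodes (log2 4.58, interval 4.24 to 4.93; 4.37, 3.97 to 4.79; 4.90, 4.38 to 5.45). Its levels in the 6 sets do not overlap, and the marker-poor ratios were larger still at 5.04, 4.95 and 5.36. Thinned to 600 UMIs, 17.6%, 10.9% and 9.63% of marker-poor nuclear-rich barcodes held a Kcnq1ot1 UMI, against 0.614%, 0.486% and 0.312% of other hepatocyte barcodes. In the barcodes barred by the 11 genes the shares were 7.24%, 4.77% and 3.97%, so Kcnq1ot1 was not particular to the nuclear-rich barcodes. Firre, an X-linked RNA that organises chromatin, had 46.7, 22.5 and 29.9 CPM against 4.25, 1.58 and 3.35. Dleu2, the host transcript of a pair of microRNAs, had 93.1, 88.2 and 82.1 CPM against 15.8, 15.0 and 14.6. Jpx, an activator of Xist, showed one of the smaller differences in the list, at 25.3, 16.2 and 23.4 CPM against 9.71, 7.57 and 8.68.

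Antisense and long intergenic noncoding genes made up 5 of the 12 genes that stood highest by the smallest ratio over 3 libraries and both sets of nuclear-rich barcodes. Lncpint, a p53-induced long noncoding RNA, had 56.7, 32.9 and 60.7 CPM in nuclear-rich barcodes of flox/flox, wt/flox and wt/wt and 2.43, 2.52 and 3.50 CPM in other hepatocyte barcodes. AC149090.1, annotated as protein-coding on the unplaced scaffold JH584304.1, had 463, 516 and 543 CPM against 45.4, 47.9 and 49.0 (log2 3.35, 3.43 and 3.47). Ctcflos, antisense to Ctcfl, had 64.4, 33.3 and 35.8 CPM against 5.62, 2.21 and 3.35, and Snhg11, a small nucleolar RNA host gene that the annotation calls protein-coding, 27.2, 19.4 and 20.4 CPM against 1.52, 0.789 and 1.37. These RNAs were thus several-fold lower in other hepatocyte barcodes than in nuclear-rich ones of every genotype. Rapgef4os3, antisense to Rapgef4, was counted with 37, 26 and 27 UMIs against 1, 1 and 0 UMIs, and B3galt2, a galactosyltransferase gene, with 23, 15 and 18 UMIs against 0, 1 and 1. Ugt1a6a, a glucuronosyltransferase gene that shares its last exons with the rest of the Ugt1a cluster, had 29.1, 21.6 and 19.9 CPM against 1.97, 1.89 and 1.52, and reads shared with its neighbours leave its level uncertain.

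The other 3 of the 12 were lymphocyte genes. Il7r, the interleukin-7 receptor, had 67.8, 31.5 and 46.8 CPM in nuclear-rich barcodes of flox/flox, wt/flox and wt/wt against 1.21, 0.789 and 1.98 CPM in other hepatocyte barcodes. Ms4a4b, a T cell membrane protein gene, had 77.4, 77.9 and 38.3 CPM against 1.06, 4.89 and 2.44. Satb1, a chromatin organiser of T cells, had 38.7, 36.5 and 26.4 CPM against 0.304, 1.10 and 0.913. In marker-poor barcodes Il7r was still higher, with 39, 12 and 25 UMIs against 2, 0 and 2 in other hepatocyte barcodes under the same limit. At 2% or more Malat1 plus Neat1 with fewer than 2 other-cell UMIs, none of the 3 lymphocyte genes had enough UMIs to be measured. That set of 2612 barcodes was chosen after the values had been seen. In that set an Il7r UMI was found in 0.232%, 0% and 0% of barcodes.

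**Figure D3:**
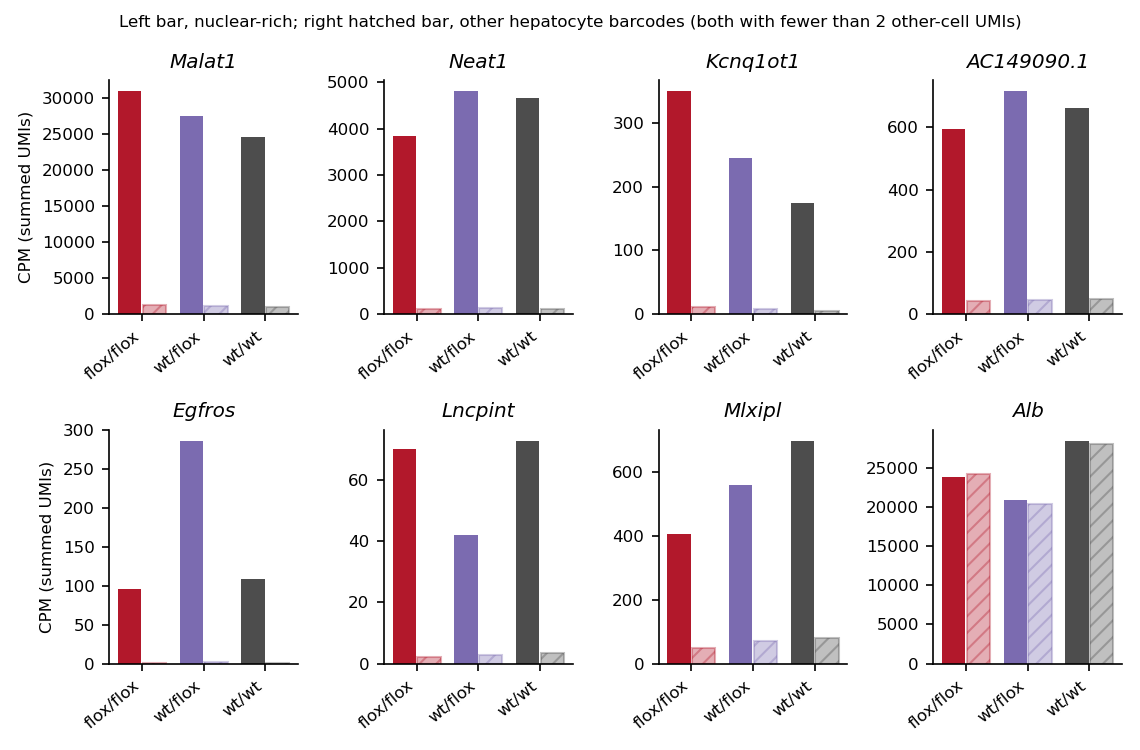
CPM of 8 genes in marker-poor nuclear-rich barcodes (left, filled) and in other hepatocyte barcodes with fewer than 2 other-cell UMIs (right, hatched) of flox/flox, wt/flox and wt/wt, 1 library each. Malat1, Neat1, Kcnq1ot1, AC149090.1, Egfros, Lncpint and Mlxipl are higher in nuclear-rich barcodes in each library, and Alb is nearly level.

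Nearly all splicing and nuclear speckle genes were higher. Of 35 measured, 33 were higher by the rule (30.5% of all genes were), with medians of 1.86, 1.40 and 1.72 in flox/flox, wt/flox and wt/wt. In marker-poor barcodes 33 were also higher (23.1% of all genes were), with medians of 2.03, 1.56 and 1.82. Luc7l2, a U1 snRNP protein that selects splice sites, had 722, 481 and 550 CPM in nuclear-rich barcodes against 92.9, 81.7 and 65.5 CPM in other hepatocyte barcodes (log2 2.96, interval 2.83 to 3.09; 2.56, 2.41 to 2.71; 3.07, 2.91 to 3.23). Pnisr, a speckle protein with serine-arginine repeats, had 191, 161 and 170 CPM against 18.5, 16.9 and 18.6. Both lay several-fold above the other hepatocyte barcodes in every library.

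Further members of the list act on splicing factors or are known for retained introns. Ccnl1, cyclin L1, had 253, 181 and 173 CPM in nuclear-rich barcodes of flox/flox, wt/flox and wt/wt, against 32.0, 34.5 and 19.6 CPM in other hepatocyte barcodes. Clk1, a kinase of serine-arginine splicing factors whose own mRNA is known to wait unspliced in the nucleus, had 230, 135 and 175 CPM against 49.2, 36.3 and 31.2. Ogt, the O-GlcNAc transferase gene, which is also known for a retained intron, had 144, 105 and 121 CPM against 22.8, 24.8 and 14.6. Son, a core protein of speckles, had 415, 271 and 311 CPM against 103, 100 and 98.5. Smaller ratios belonged to Ddx5, an RNA helicase gene, at 1025, 770 and 774 CPM against 510, 446 and 459. The list's exceptions were Srrm1, a splicing coactivator gene, with log2 ratios of 0.48, 0.58 and 0.23, and Zranb2, a zinc finger splicing factor gene, with 0.84, 0.57 and 0.38.

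Of 15 paraspeckle and nuclear matrix protein genes, 9 were higher by the rule, where 30.5% of all genes were, with medians of 1.15, 0.79 and 0.83 in flox/flox, wt/flox and wt/wt. Pspc1, paraspeckle component 1, had 32.6, 19.4 and 20.4 CPM in nuclear-rich barcodes against 7.89, 4.57 and 5.79 CPM in other hepatocyte barcodes, and Cpsf6, a cleavage factor subunit, 103, 77.9 and 85.1 CPM against 26.1, 25.9 and 24.2. Nono, a core paraspeckle protein that pairs with Pspc1 and Sfpq, was close to level at 95.8, 67.5 and 68.2 CPM against 76.7, 63.4 and 66.7, as was Hnrnpk at 315, 300 and 296 CPM against 326, 285 and 298. Members of the list thus ranged from several-fold higher to level.

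Of the mRNAs known to be held in the hepatocyte nucleus, all 3 on the list were higher in marker-poor barcodes, where 23.1% of all genes were. By the rule 2 were higher, where 30.5% of all genes were. Mlxipl had 290, 384 and 543 CPM in nuclear-rich barcodes of flox/flox, wt/flox and wt/wt and 49.0, 69.4 and 77.6 CPM in other hepatocyte barcodes (log2 2.56, interval 2.37 to 2.76; 2.47, 2.30 to 2.64; 2.81, 2.65 to 2.96). Nlrp6, an inflammasome sensor gene, had 135, 159 and 227 CPM against 49.3, 69.2 and 66.4. Slc7a2, a cationic amino acid transporter gene, had 801, 442 and 937 CPM against 543, 183 and 472, and its flox/flox log2 ratio of 0.56 by the rule was under 1.5-fold. The wt/flox library was lowest in Slc7a2 in both kinds of barcode.

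Liver transcription factor genes, whose proteins act in the nucleus, did not share this pattern, with 3 of 37 higher (30.5% of all genes were) and medians of 0.18, 0.15 and 0.25. Hnf4a, a master regulator of hepatocyte genes, had 314, 248 and 317 CPM in nuclear-rich barcodes against 354, 259 and 304 CPM in other hepatocyte barcodes. Creb3l3, a transcription factor of lipid metabolism, had 305, 221 and 231 CPM against 182, 169 and 149. By the rule the list lay below the median of all measured genes in each library. In marker-poor barcodes its medians were 0.27, 0.36 and 0.36, below that of all genes in flox/flox and above it in wt/flox and wt/wt. There 6 of 37 were higher, where 23.1% of all genes were.

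Egfr, the receptor named in the study's title, was higher in all libraries, and in flox/flox by the least. It had 623, 310 and 508 CPM in nuclear-rich barcodes of flox/flox, wt/flox and wt/wt against 520, 179 and 310 CPM in other hepatocyte barcodes, with log2 ratios of 0.26, 0.79 and 0.71. Relative to the median of all measured genes (0.45 in flox/flox), Egfr was lower in nuclear-rich barcodes of flox/flox by the rule and higher in the other libraries. In marker-poor barcodes its ratios were 0.59, 1.21 and 0.96. Egfros, a noncoding RNA from the opposite strand inside Egfr (chr11:16752203-16918158, plus strand), had 169, 411 and 163 UMIs in nuclear-rich barcodes against 4, 13 and 3 UMIs in other hepatocyte barcodes. It was found in 9.66%, 22.7% and 10.3% of marker-poor nuclear-rich barcodes and in 0.0614%, 0.198% and 0.0425% of other hepatocyte barcodes. Whether the authors' counting used strand is not given in the sources used here, so Egfros reads and reads from Egfr introns cannot be told apart, and the same holds for the other antisense genes.

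The lists that follow, of oxidative phosphorylation, ribosomal protein, metabolic enzyme and secreted protein genes, had medians near or below 0 by the rule. Where in the cell their mRNAs lay was not measured, and the part of transcript length, given further on, was not tested. Nuclear-encoded oxidative phosphorylation genes had medians of -0.64, -0.46 and -0.58 in flox/flox, wt/flox and wt/wt. By the 1.5-fold rule 1 of 30 was lower (0.355% of all genes were) and 0 were higher (30.5% of all genes were). Cox6c, a subunit of cytochrome c oxidase, had 837, 1217 and 974 CPM in nuclear-rich barcodes against 1303, 1688 and 1461 CPM in other hepatocyte barcodes. Ndufa4, another subunit of that complex, had 1017, 1256 and 986 CPM against 1533, 1722 and 1397. In the 2612 barcodes with at least 2% Malat1 plus Neat1 and few other-cell UMIs, 17 of the 30 were lower, where 4.21% of 8971 measured genes were.

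The values of ribosomal protein mRNAs depended on how barcodes with other-cell UMIs were treated. By the rule their medians were -0.02, -0.07 and -0.28 over 79 measured genes, in marker-poor barcodes -0.61, -0.47 and -0.60, and at 2% or more -0.93, -0.65 and -0.75. At 2% or more 70 of 79 were lower, where 4.21% of all genes were. Rpl41, the smallest ribosomal protein gene, had marker-poor log2 ratios of -0.58, -0.47 and -0.59. Cytosolic metabolic enzyme genes had medians of -0.44, -0.32 and -0.34, with 1 of 30 higher and 1 lower. Secreted plasma protein genes, whose mRNAs sit on the endoplasmic reticulum, were near level by the rule at -0.20, 0.01 and 0.10, with 0 of 30 higher and 0 lower. By the rule 30.5% of all genes were higher and 0.355% lower. In marker-poor barcodes the secreted medians were 0.05, 0.27 and 0.29, with 1 of 30 higher, where 23.1% of all genes were.

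Among single plasma protein genes the range was wide. Ttr, the thyroxine carrier transthyretin, had 5481, 7515 and 6889 CPM in nuclear-rich barcodes of flox/flox, wt/flox and wt/wt against 8313, 10297 and 8673 CPM in other hepatocyte barcodes. Fgb, the fibrinogen beta chain, had 1864, 3218 and 2702 CPM against 1765, 2083 and 1850. Apob, the large structural protein of very low density lipoprotein, was close to level at 2118, 2088 and 1847 CPM against 2172, 1881 and 1698. Alb had 19920, 17931 and 25673 CPM against 24143, 20080 and 27891 by the rule, and marker-poor log2 ratios of -0.03, 0.04 and 0.02.

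**Figure D4:**
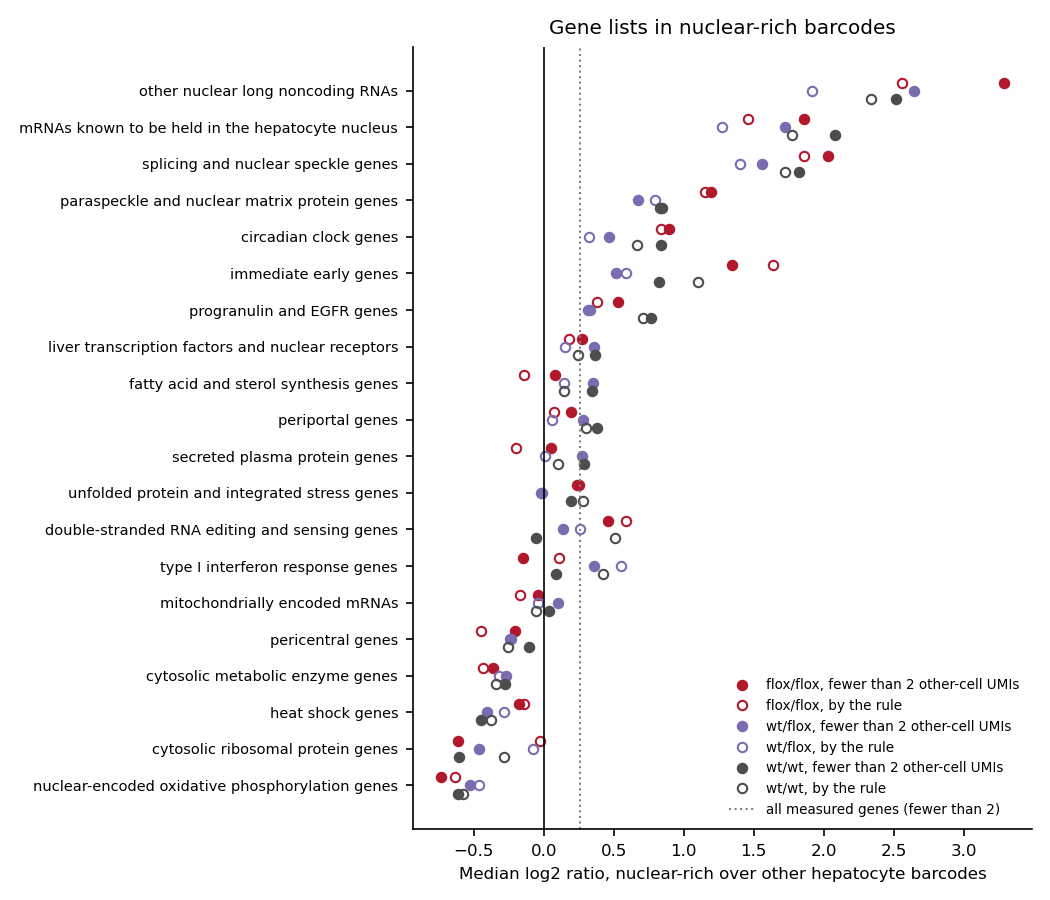
Median log2 CPM ratio of nuclear-rich over other hepatocyte barcodes for each gene list and library, with filled points for barcodes with fewer than 2 other-cell UMIs and open points for the rule alone; the dotted line marks the median of all measured genes with fewer than 2 other-cell UMIs. Long noncoding RNAs, splicing genes and nuclear-held mRNAs lie farthest to the higher side, oxidative phosphorylation and ribosomal protein genes to the lower side.

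Of the lists that respond to signals, immediate early genes were higher in 8 of 17 (medians 1.64, 0.59 and 1.10), where 30.5% of all genes were. In marker-poor barcodes 6 of 15 were higher, where 23.1% of all genes were. Clock genes were higher in 5 of 15 (0.84, 0.33 and 0.67) and in marker-poor barcodes in 3 of 13, both near the share of all genes (30.5% and 23.1%). Jun, a subunit of the AP-1 factor, had 167, 158 and 167 CPM in nuclear-rich barcodes of flox/flox, wt/flox and wt/wt against 35.1, 66.1 and 56.0 CPM in other hepatocyte barcodes. Egr1, an early growth response factor, had 107, 140 and 59.2 CPM against 21.3, 167 and 27.6, so the wt/flox library went the other way. Per1, a repressor of the circadian clock, had 33.7, 12.2 and 34.8 CPM against 17.8, 5.52 and 8.68. Type I interferon response genes were higher in 10 of 41 by the rule and in 5 of 35 in marker-poor barcodes, where 30.5% and 23.1% of all genes were. Heat shock genes and unfolded protein or integrated stress genes had 0 of 11 and 0 of 17 higher by the rule, where 30.5% of all genes were. Of the zonation lists, 1 of 13 pericentral genes was higher (medians -0.45, -0.23 and -0.26) and 1 of 14 periportal genes (0.07, 0.06 and 0.30), where 30.5% of all genes were. Both lists lay below the medians of all measured genes by the rule, and the pericentral list was the lower in each library. In marker-poor barcodes the medians were -0.20, -0.24 and -0.11 for pericentral and 0.19, 0.28 and 0.38 for periportal genes. By the rule 1 of 22 fatty acid and sterol synthesis genes was higher, where 30.5% of all genes were. Progranulin and EGFR genes were higher in 5 of 15 and double-stranded RNA editing and sensing genes in 3 of 10, near the 30.5% of all genes. In marker-poor barcodes these 2 lists were higher in 3 of 14 and 0 of 8, where 23.1% of all genes were. The 13 mitochondrially encoded mRNAs had medians of -0.17, -0.04 and -0.06.

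Haemoglobin genes led the 12 lowest. Hbb-bs, an adult beta globin, had 4, 1456 and 38 UMIs in the nuclear-rich barcodes of flox/flox, wt/flox and wt/wt, and 1267, 46420 and 9633 UMIs in other hepatocyte barcodes. In other hepatocyte barcodes those UMIs sat in 8, 346 and 63 barcodes, and in nuclear-rich barcodes in 4, 38 and 6. These are few barcodes of very high content, since the rule bars no erythroid gene, and near-identical globin copies leave the split among Hbb-bs, Hbb-bt, Hba-a1 and Hba-a2 uncertain. The remaining lower genes were mostly short cytoplasmic or mitochondrial protein genes at modest ratios. Cela1, an elastase gene, had 38.7, 59.4 and 39.8 CPM in nuclear-rich barcodes against 72.1, 106 and 72.0 CPM in other hepatocyte barcodes. Acot13, a mitochondrial thioesterase gene, had 43.3, 59.4 and 59.7 CPM against 71.3, 97.6 and 102, and Mrpl51, a mitochondrial ribosomal protein gene, 110, 129 and 125 CPM against 173, 201 and 196. Hist1h2bc, a histone gene, had 155, 323 and 211 CPM against 296, 509 and 350.

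Length and class of the transcript went along with the ratios, measures that the rule did not use as such. Over 9731 measured genes of the marker-poor comparison with a length in GENCODE M21, 11% of the quartile with the shortest exonic length (0.183 to 2.755 kb) were higher and 4.23% lower. In the quartile with the longest (6.977 to 123.179 kb) 40.8% were higher and 0% lower. The middle quartiles had 16.2% and 24.3% higher. By genomic span, introns included, the quartiles from short to long had 17.4%, 19.7%, 23.6% and 31.6% higher, a flatter gradient. Long noncoding genes were higher in 236 of 422 (55.9%), with medians of 1.60, 1.34 and 1.54, and protein-coding genes in 2007 of 9306 (21.6%), with medians of 0.28, 0.21 and 0.24. Genes could be measured on their UMIs in nuclear-rich barcodes alone, so scarce genes may be counted because they are high there. The classes were not matched for level, so their shares are a description.

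Between genotypes, the targeted gene was looked at first within the nuclear-rich barcodes. Adar had 145, 71 and 30 UMIs, or 55.5, 32.0 and 14.9 CPM, in flox/flox, wt/flox and wt/wt, the opposite of the order that the labels give for intact alleles. The log2 ratio of flox/flox over wt/wt was 1.90 (1.32 to 2.51). The labels do not name the deleted exons, and 3' tags outside them do not check the deletion, so flox/flox means here the library labelled flox/flox. Ifih1 was at 0 UMIs in the nuclear-rich barcodes of each library, which allows up to 1.15, 1.35 and 1.49 CPM, as the labels state for Ifih1-/-.

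In nuclear-rich barcodes 1953 of 11317 measured genes (17.3%) were at least 1.5-fold higher in flox/flox than in wt/wt and 1072 (9.47%) lower. Against wt/flox, 1807 of 11319 (16%) were higher and 1229 (10.9%) lower in flox/flox. The wt/flox library had 1474 of 11306 (13%) higher and 1220 (10.8%) lower than wt/wt. With 1 library each these are distances between libraries.

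Most type I interferon response genes were higher in flox/flox than in each other library. Of 43 measured, 38 were at least 1.5-fold higher in flox/flox than in wt/wt in nuclear-rich barcodes (17.3% of all genes were), with a median log2 ratio of 1.56 where all genes had 0.10. Against wt/flox 33 of 43 were higher (median 0.89), where 16% of all genes were. In wt/flox 24 of 42 were higher than in wt/wt and 1 lower (median 0.66), where 13% and 10.8% of all genes were. A gene was measured on UMIs summed over the 3 libraries, so some entered mainly through flox/flox, such as Ifi44 with 160, 12 and 4 UMIs. In marker-poor nuclear-rich barcodes 35 of 40 were higher in flox/flox than in wt/wt (median 1.69), where 18% of all genes were, and in other hepatocyte barcodes 40 of 42 (median 1.93), where 12.8% were. The difference between the 2 kinds of barcode was not tested.

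The members of that list that act against viral RNA were mostly lowest in wt/wt and highest in flox/flox. Ifit1, which binds RNA that lacks a self cap, had 50.9, 11.7 and 5.97 CPM in nuclear-rich barcodes of flox/flox, wt/flox and wt/wt (flox/flox over wt/wt log2 3.09, 2.24 to 4.08). Usp18, which removes ISG15 from proteins and dampens the receptor, had 55.5, 16.7 and 4.98 CPM, and Isg15 itself 50.2, 20.7 and 6.47 CPM. Irf7, the factor that amplifies interferon transcription, had 78.5, 24.3 and 12.9 CPM. Eif2ak2, the double-stranded RNA kinase PKR, had 42.5, 21.6 and 13.9 CPM. By the rule the order flox/flox, wt/flox, wt/wt held for each of these. An Ifit1 UMI was found in 4.18%, 0.965% and 0.628% of marker-poor nuclear-rich barcodes. Where these also had at least 2% Malat1 plus Neat1, the Ifit1 shares were 3.95%, 0.839% and 0.981%, so wt/wt was not lowest there.

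Membrane and abundant members ran from large to small ratios. Ifi44 had 160, 12 and 4 UMIs in flox/flox, wt/flox and wt/wt, and its UMIs sat in 7%, 0.571% and 0.209% of nuclear-rich barcodes. Ifi27, a small hydrophobic protein gene, had 346, 102 and 58.7 CPM (flox/flox over wt/wt log2 2.56, 2.28 to 2.85). Ifitm3, which blocks viral entry, had 1116, 844 and 588 CPM, and Bst2, the virus tether tetherin, 293, 233 and 201 CPM. Of 10 measured genes of double-stranded RNA editing and sensing, 7 were higher in flox/flox than in wt/wt (median 1.26), where 17.3% of all genes were, and this list shares members such as Eif2ak2 and Zbp1 with the interferon list.

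**Figure D5:**
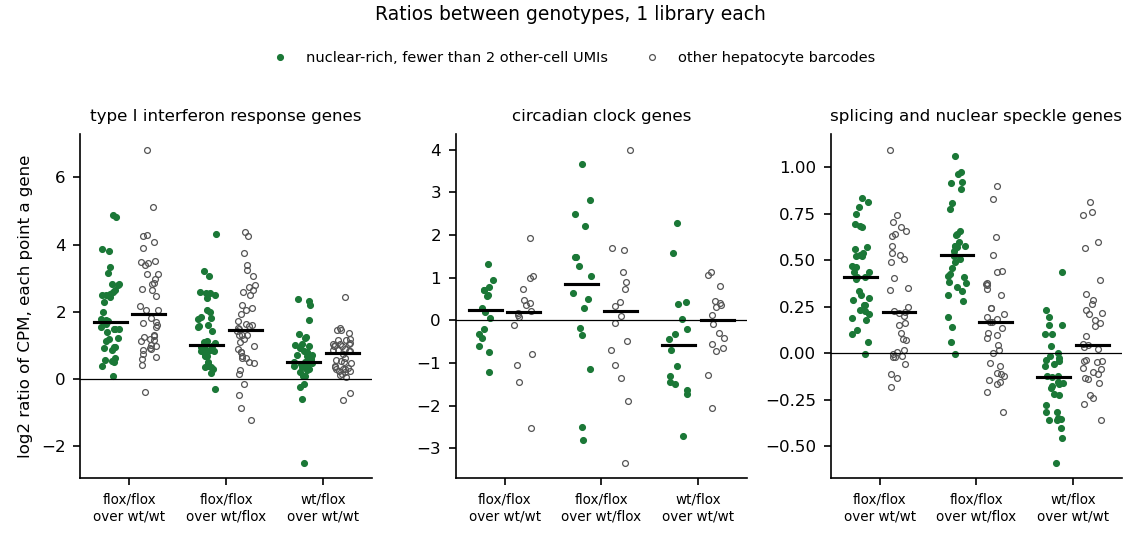
Log2 CPM ratio of each gene of the interferon, clock and splicing lists between pairs of libraries, with 1 library per genotype; filled green points are marker-poor nuclear-rich barcodes, open points are other hepatocyte barcodes and lines are list medians. Nearly all interferon genes lie above 0 in flox/flox over wt/wt in both kinds of barcode (medians 1.69 and 1.93), and clock genes lie on either side of 0.

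Beyond interferon genes, single genes stood above both other libraries in flox/flox nuclear-rich barcodes. Of all measured genes 6.9% were higher in flox/flox than in both. Cyp2a4, a steroid hydroxylase gene, had 222 UMIs in flox/flox, 4 in wt/flox and 3 in wt/wt, spread over 8.84%, 0.190% and 0.157% of nuclear-rich barcodes, and Cyp2a5, the coumarin hydroxylase gene, had 178, 39.2 and 50.8 CPM. These 2 genes are near-identical copies, and how reads were split between them is uncertain. Gstm3, a glutathione transferase gene, had 169, 32.0 and 34.3 CPM (log2 2.30, 1.93 to 2.68, over wt/wt; 2.40, 2.03 to 2.78, over wt/flox). Lcn2, the iron-binding acute phase protein lipocalin 2, had 37.2, 7.20 and 3.98 CPM. Asic5, a bile acid-sensitive ion channel gene, had 79.7, 19.4 and 9.95 CPM. The flox/flox library lay apart from the 2 others for these genes in other hepatocyte barcodes too, where Gstm3 had 268, 42.9 and 56.2 CPM and Asic5 42.4, 13.7 and 3.81 CPM.

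Some genes that were higher in flox/flox by the rule had few UMIs in marker-poor barcodes or rested on single barcodes. Iglc1, an immunoglobulin light chain gene, had 1200, 72 and 47 UMIs in nuclear-rich barcodes of flox/flox, wt/flox and wt/wt, and 671 of the 1200 came from 1 barcode. In marker-poor barcodes all 179 flox/flox UMIs came from 1 barcode, so its level there rests on 1 barcode. Spp1, the secreted protein osteopontin and a bile duct marker, had 249, 73.4 and 17.4 CPM by the rule but 8, 12 and 3 UMIs in marker-poor barcodes. Slpi, a protease inhibitor that protects progranulin, had 47.9, 15.3 and 2.99 CPM by the rule but 6, 4 and 1 UMIs in marker-poor barcodes. B cell markers had 8649, 6994 and 2316 UMIs in nuclear-rich barcodes of the 3 libraries.

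Lower in flox/flox than in both others were 4.96% of genes. Alas2, an aminolevulinate synthase gene of haem synthesis, had 22.6, 100 and 72.6 CPM in nuclear-rich barcodes of flox/flox, wt/flox and wt/wt (log2 -1.68, -2.15 to -1.24, over wt/wt). It is best known from red cell precursors, and its 146 UMIs in wt/wt stood beside 38 UMIs of Hbb-bs in the same barcodes. Hsd3b5, a steroid dehydrogenase gene that male livers express, had 38.7, 117 and 100 CPM, and its relative Hsd3b2 17.6, 52.2 and 47.8 CPM. Foxq1, a forkhead factor gene, had 25.3, 208 and 72.1 CPM. For these 4 the marker-poor log2 ratios over wt/wt were -1.67, -1.50, -1.34 and -1.34, in that order. C4a, a complement gene whose near-copy C4b leaves it uncertain, had 11.1, 51.8 and 41.8 CPM in nuclear-rich barcodes and 14.3, 19.9 and 15.8 CPM in other hepatocyte barcodes. The endothelial genes Eng, Ptprb, Gpihbp1 and Gpr182 were also among the 12 lowest by the rule, and in marker-poor barcodes Eng had 5, 1 and 4 UMIs and Ptprb 3, 3 and 7.

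Single genes also stood lower in wt/flox than in both other libraries. The metallothionein genes Mt1 and Mt2, which bind zinc and respond to glucocorticoids, had 1916, 224 and 2701 CPM and 670, 39.2 and 736 CPM in nuclear-rich barcodes of flox/flox, wt/flox and wt/wt (wt/flox over wt/wt log2 -3.59, -3.73 to -3.46, and -4.23, -4.56 to -3.92). Rgs16, a regulator of G protein signalling, had 150, 5.85 and 97.0 CPM, and Plin4, a lipid droplet coat gene, 70.9, 3.15 and 29.9 CPM. Setdb2, a histone methyltransferase gene, had 90.4, 24.3 and 280 CPM, and Phf11c, its neighbour on chromosome 14, had 71.6, 8.55 and 119 CPM. All 6 were lowest in wt/flox. On the higher side of wt/flox over wt/wt were the immunoglobulin genes Ighg2c (369 against 1 UMIs), Ighg2b (174 against 1) and Iglc2 (448 against 17.9 CPM) and the haemoglobin genes, none of them hepatocyte genes.

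Of 16 clock genes, 9 were higher and 3 lower in flox/flox than in wt/flox (median 0.75), where 16% and 10.9% of all genes were. Wt/flox had 2 higher and 8 lower than wt/wt (median -0.52), where 13% and 10.8% of all genes were. Nr1d1, the repressor REV-ERB alpha, had 79.3, 18.9 and 60.7 CPM in nuclear-rich barcodes of flox/flox, wt/flox and wt/wt, and Ciart, a clock repressor, 51, 2 and 22 UMIs. Npas2, an activator of the clock, ran the other way at 0.383, 9.90 and 4.98 CPM, as did Per2 at 4.21, 15.8 and 3.98 CPM. The hour at which each liver was taken is not given in the labels, and its part in these differences was not tested. Of 17 immediate early genes 7 were higher in wt/flox than in wt/wt (median 0.18), where 13% of all genes were, among them Fos at 14.6, 37.4 and 5.97 CPM and Myc at 10.3, 35.1 and 4.48 CPM in flox/flox, wt/flox and wt/wt.

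The nuclear lists were also compared between genotypes. Splicing genes had a median log2 ratio of 0.31 in flox/flox over wt/wt with 5 of 35 higher (17.3% of all genes were), and 0.46 over wt/flox with 10 of 35 higher (16% of all genes were), in nuclear-rich barcodes. In marker-poor ones the medians were 0.41 and 0.53, and in other hepatocyte barcodes 0.22 and 0.17. Kcnq1ot1 was higher in flox/flox than in wt/wt (log2 0.87, 0.68 to 1.07) and wt/flox (0.58, 0.41 to 0.76). Neat1 was lower in flox/flox than in wt/wt (-0.39, -0.43 to -0.34), while Malat1 was higher (0.24, 0.22 to 0.25), and both RNAs were part of the rule. Mlxipl was lowest in flox/flox in nuclear-rich barcodes (log2 -0.90, -1.04 to -0.77, over wt/wt) and in other hepatocyte barcodes (-0.66, -0.87 to -0.46).

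Grn, the gene of progranulin, had 157, 88.7 and 127 CPM in nuclear-rich barcodes of flox/flox, wt/flox and wt/wt, against 111, 70.5 and 68.4 CPM in other hepatocyte barcodes. Flox/flox was above wt/flox (log2 0.83, 0.58 to 1.08) and, by less, above wt/wt (0.31, 0.08 to 0.54). Egfr followed the same order of libraries, with log2 ratios of 1.01 (0.88 to 1.14) over wt/flox and 0.30 (0.18 to 0.41) over wt/wt. Egfros did not, since wt/flox had the highest level of it and the lowest of Egfr (flox/flox over wt/flox log2 -1.52, -1.78 to -1.25, for Egfros).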

How the data were processed

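The authors deposited UMI counts per gene and barcode, written by Cell Ranger 6.1.1 per the file headers, for 3 libraries of 10000 barcodes in 1 matrix of 32285 genes. The submitters' processing notes name the mm10 build and Seurat, and any scaling between libraries is not given in the sources used here. Totals were 10756790 UMIs in flox/flox, 10067929 in wt/flox and 9744380 in wt/wt, with medians of 926, 898 and 852 UMIs per barcode, so that single barcodes resolve only abundant genes and sums were compared. Each library starts at a lower edge of 636, 721 and 727 UMIs, so barcodes were chosen before deposit. No doublet caller was run and doublets remain. Between libraries 32 (flox/flox and wt/wt), 27 (flox/flox and wt/flox) and 20 (wt/flox and wt/wt) barcode sequences were shared, of which 2, 1 and 1 were nuclear-rich in both.

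Counts were summed per library and set and scaled to CPM, and counts under 3 were set to 3 in ratios. Against other hepatocyte barcodes a gene was measured with at least 20 UMIs in nuclear-rich barcodes, or that many expected from the comparison set. Between genotypes a gene was measured with at least 20 UMIs summed over the 3 libraries. Scarce genes could thus enter through the set where they are high. Ratios carry exact conditional binomial 95% intervals (scipy 1.17.1 and numpy 2.4.6 under Python 3.11.15). UMIs at 0 allow up to 3 counts. With 1 library per genotype no test was made, and intervals and limits cover counting error only. Named genes were the 12 highest and 12 lowest by the smallest ratio over libraries and both nuclear-rich sets, with at least 50 UMIs on the higher side, then the 12 highest and 12 lowest of flox/flox against both others and the 6 of wt/flox over wt/wt. The barcodes, lists and thresholds were chosen with earlier results of these data known. Mx1, Mx2 and Ddit3 were not analysed here.

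The ratio script was checked on simulated counts. Alternatives for the limits on Malat1 plus Neat1, mitochondrial share, depth and other-cell UMIs, for centring and for the gene minimum are given in the closing section.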

Additional observations from a re-analysis of the deposited data

Results flagged for a closer look

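Phf11c, a gene next to Setdb2 on chromosome 14, differed in opposite directions between kinds of barcode. In marker-poor nuclear-rich barcodes it had 99.4 CPM in flox/flox, 9.93 in wt/flox and 151 in wt/wt, a log2 ratio of flox/flox over wt/wt of -0.60. In other hepatocyte barcodes it had 15.2, 1.89 and 9.59 CPM, a log2 ratio of 0.66. The difference was not tested, and each value rests on 1 library.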

How the results depend on the processing

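No paired analysis was possible because each genotype has 1 library. Over 151 results and 13 alternatives, 147 results were not marked as turned. A turn was marked only for list medians and genes at least 1.5-fold from level by the rule. Shares and counts of genes have no sign to turn. Smaller list medians could change sign unmarked, as the secreted median did after centring. The 2 alternatives with a limit of 2%, with and without the other-cell limit, were chosen after seeing the data. The nuclear-rich shares of flox/flox, wt/flox and wt/wt were 36.2%, 33.9% and 31.6% with a limit of 0.25%, 15.2%, 13.8% and 14.6% with 1%, 9.76%, 8.96% and 9.68% with 2%, 8.61%, 8.34% and 9.17% with 2% and fewer than 2 other-cell UMIs, 14.6%, 13.5% and 14.3% with that other-cell limit alone, and 11.8%, 9.39% and 9.06% with at least 1000 UMIs. With Malat1 alone wt/flox had 20.1%, and with at most 20% mitochondrial UMIs flox/flox had 20.1%. Genes lower in all libraries numbered 14 at 0.25%, 68 at 1%, 251 at 2%, 308 at 2% with few other-cell UMIs, 130 with few other-cell UMIs alone, 232 at 1000 UMIs and 1071 after centring on the median gene. The 308 takes as its comparison all remaining marker-poor barcodes; against those under 0.5% it was 378. Genes higher numbered 2247 with few other-cell UMIs, 2291 at 2% and 2244 after centring. The median ribosomal log2 ratio over libraries was -0.25 at 1%, -0.65 at 2%, -0.73 at 2% with few other-cell UMIs, -0.60 with few other-cell UMIs, -0.24 at 1000 UMIs and -0.48 after centring. The splicing median was 1.36 at 0.25%, 2.00 at 2% with few other-cell UMIs and 1.31 after centring, and the secreted median 0.33 at 1000 UMIs, 0.27 with few other-cell UMIs and -0.36 after centring. The interferon median of flox/flox over wt/flox was 1.02 at 0.25%, 0.76 at 1000 UMIs, 1.02 with few other-cell UMIs, 1.13 at 2% and 1.08 at 2% with few other-cell UMIs, and the wt/flox to wt/wt median was 0.85 at 1000 UMIs and 0.50 with few other-cell UMIs. With at least 50 UMIs per gene, 1291 genes were higher and 689 lower in flox/flox than in wt/wt, 794 lower in flox/flox than in wt/flox, and 907 higher and 802 lower in wt/flox than in wt/wt, since fewer genes were measured.

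Direction turned for 4 genes of other cells, to which the alternatives applied no UMI minimum. Eng, lower in flox/flox by the rule, had 0.11 with few other-cell UMIs and 0.25 at 2% with few other-cell UMIs, and Gpr182 0.11 with few other-cell UMIs. Il7r, higher in nuclear-rich barcodes by the rule, had -0.17 at 2%, and Ms4a4b -0.22 at 2% and -0.40 at 2% with few other-cell UMIs. Eng had few UMIs in marker-poor barcodes, as given above. Ms4a4b had too few to be measured at 2% with few other-cell UMIs against barcodes under 0.5%. The turned signs of these genes are therefore uncertain. At 2% the barcodes with 0.5 to 2% Malat1 plus Neat1, where other-cell UMIs were most common, belong to the comparison set, and the other-cell limit removes such barcodes from both sets. For the other values the cause was not tested.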
